A study of Schizosaccharomyces pombe
Saccharomyces cerevisiae with 8 samples.

Results

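The genes described here encode the enzymes of glycolysis, gluconeogenesis, alcoholic fermentation and the pentose phosphate pathway in budding yeast, Saccharomyces cerevisiae. They were taken by their gene identifiers, 40 of the 6808 genes listed in the deposited tables, by a rule that uses pathway membership and no threshold on values, though with earlier results of these data known. Of the 40, 17 had a symbol in the tables, 14 were matched to a name in the deposited descriptions, and 9 are called by identifier. The groups used were newly synthesized RNA (nsRNA) from auxin-treated cells and from DMSO-treated cells, and total RNA from auxin-treated cells and from DMSO-treated cells, with 2 libraries in each group. Auxin was 3-IAA at 500 µM for 30 min, DMSO was its carrier, and every culture, grown in YPD, then had 6 min with 5 mM 4-thiouracil, a uracil analog that marks RNA made during that time. All cells were 1 strain, GZY364, of mating type MATalpha, with SUA7-3V5-IAA7-kanMX6, a degron tag on Sua7 (yeast TFIIB, which bridges the promoter complex and RNA polymerase II). It also carried his3::pGPD1-OsTIR1-HIS3, which expresses the rice auxin receptor from the promoter written as pGPD1. The other alleles, shared by all groups, were ura3<delta>0, leu2<delta>0 and lys2<delta>0, and also ade2<delta>::hisG, trp1<delta>63, his3<delta>200 and met15<delta>0. No strain without the degron was among the samples, so an effect of auxin itself and an effect of Sua7 loss cannot be told apart. The replicates are called biological, but whether they came from separate cultures is not stated, so p-values measure only the spread between these libraries.

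Glycolysis turns glucose into pyruvate, and budding yeast growing on glucose ferments most of that pyruvate to ethanol through acetaldehyde. The pentose phosphate pathway takes glucose 6-phosphate instead and yields NADPH and ribose 5-phosphate, in an oxidative branch and a non-oxidative branch. Many of these steps have several isoenzymes, of which a major form is used on glucose while others are low until glucose runs out or the cell is stressed.

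Depth differed between the groups. The nsRNA libraries held 1291241 and 1753672 counts with auxin, against 9496247 and 11779971 with DMSO, and the total RNA libraries held 7010247 and 7181104 with auxin, against 8275038 and 10543351 with DMSO. Values below are scaled counts, the raw count divided by the factor that the authors deposited for that library, and log2 changes are auxin over DMSO on that scaling. How the factors were derived was not stated in the sources at hand. Over all tested genes the median log2 change was -4.08 in nsRNA and -2.34 in total RNA. Scaling by TMM, which centres the bulk of the genes, moved that median up by 4.04 in nsRNA and by 2.22 in total RNA, and median-of-ratios scaling moved it up by 4.05 and 2.29. Each change is therefore also placed against the median gene. In bulk RNA, fewer cells and less RNA per cell cannot be told apart. RNA of 3 alpha-specific genes summed to 4060 and 4143 raw counts in total RNA with auxin, against 10307 and 12063 with DMSO, and RNA of 4 a-specific genes summed to 57 and 37 with auxin, against 35 and 41 with DMSO (the labelled mating type is MATalpha).

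On the deposited scaling newly made RNA of these genes was lower after auxin wherever it could be tested. On the same scaling the standing RNA of most major enzymes lay close to its DMSO level. That of 8 genes, among them ZWF1 and several minor isoenzymes, had a log2 change under -2, where the median of all genes was -2.34. Other minor forms, such as YLR134W (-0.43) and YMR083W (-0.71), fell less. With TMM most of the genes were higher in total RNA. In nsRNA, 37 of the 40 genes had enough counts, and all 37 were lower on the deposited scaling (edgeR quasi-likelihood test, Benjamini-Hochberg adjusted over 5800 genes), where 97.6% of all tested genes were lower. That share is near the background. None was higher by edgeR (1.31% of all genes were), by its unadjusted p under 0.05 or by DESeq2. With TMM, 23 of 36 were lower and 2 higher, beside 27.5% and 29.6% of all genes, and with median-of-ratios scaling 23 and 2, beside 26.8% and 29.8%. In total RNA, 24 of 36 tested genes were lower, none was higher and 12 were not called, while 90.3% of all 5479 tested genes were lower. None was higher in total RNA by the unadjusted p under 0.05 or by DESeq2 either, beside 1.44% of all genes called higher. Their median log2 change there was -0.68, against -2.34 for all genes, and the direction flips with the scaling: with TMM, 27 of 35 were higher and 5 lower, beside 34.9% and 38.1% of all genes. With median-of-ratios scaling, 29 of 36 were higher and 4 lower, beside 37.1% and 36.0% of all genes. The scaled counts of the auxin and DMSO libraries did not overlap for any tested gene of the set, all of them being lower with auxin. Of all genes, 97.8% in nsRNA and 93.9% in total RNA were lower without overlap, and 1.52% and 1.79% were higher. Counts were too low for a test of YGR087C, ADH2 and FBP1 in nsRNA and of YGR087C, FBP1, PCK1 and TKL2 in total RNA. PCK1, SOL4, GND2, TKL2 and NQM1 in nsRNA, and ADH2 and NQM1 in total RNA, passed the filter only through the DMSO libraries, so they lend no support to these counts.

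**Figure D1:**
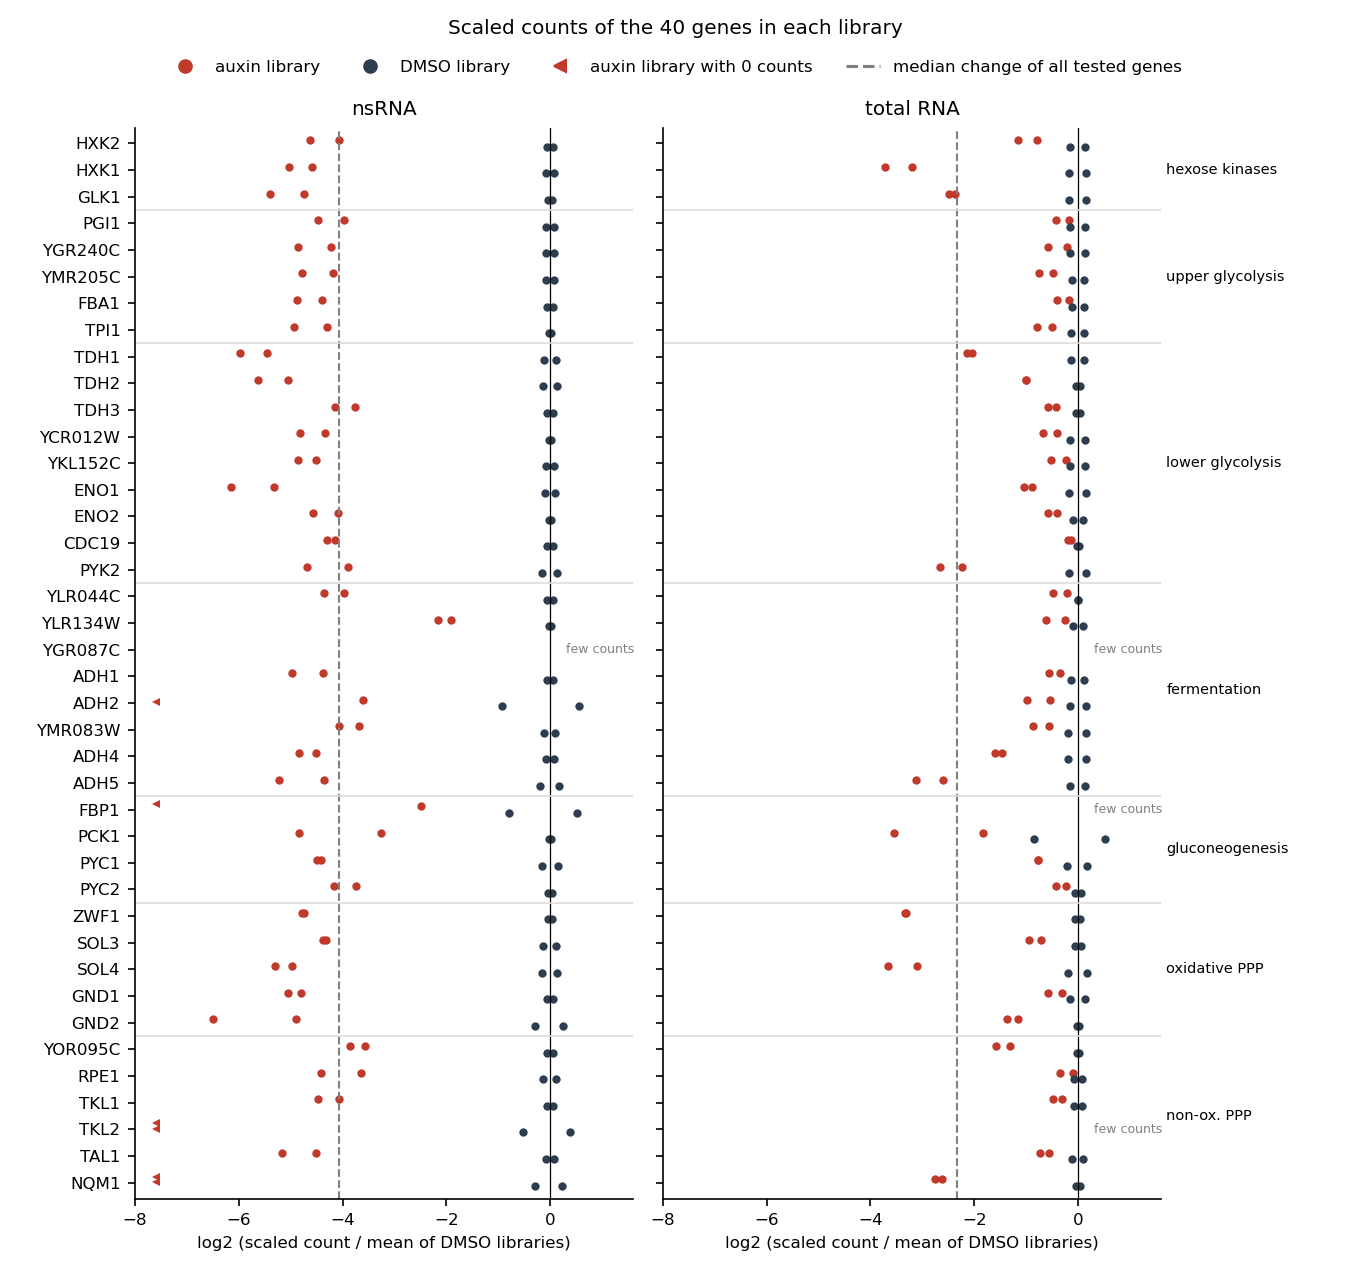
Log2 of the scaled count of each of the 40 genes over its mean in the DMSO libraries (x axis) in nsRNA and total RNA, with 2 auxin libraries and 2 DMSO libraries per gene as points and the median log2 change of all tested genes as a dashed line (deposited scaling). In nsRNA the auxin points of most genes lie around or left of the median of -4.08, and in total RNA most lie to its right, with HXK1, SOL4 and ZWF1 as the lowest; under TMM the direction in total RNA is higher for 27 of 35. Triangles mark 0 counts, and genes with too few counts to place are marked as such.

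The hexose kinases phosphorylate glucose on entry into the pathway, and the 3 of them differed widely in how much standing RNA was left. HXK2, hexokinase 2, the main form during growth on glucose, had 11903 and 15318 scaled counts in total RNA with auxin, against 23979 and 29339 with DMSO. The log2 change of HXK2 was -0.97 with an SE of 0.23, the error also given after ± below (edgeR adjusted p = 2.81e-05). HXK1, hexokinase 1, known to be repressed by glucose, had 147 and 211 with auxin, against 1713 and 2149 with DMSO. Its log2 change of -3.44 ± 0.28 was the lowest of the set in total RNA (edgeR adjusted p = 4.56e-32), with 9.24% left on the fitted scale. GLK1, the glucokinase, had 1169 and 1277 with auxin, against 5878 and 7303 with DMSO, a log2 change of -2.43 ± 0.26 (edgeR adjusted p = 4.09e-20). In total RNA the 3 fell on the deposited scaling, whereas with TMM HXK2 was higher and the other 2 lower (with median-of-ratios factors GLK1 was not called).

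In nsRNA the same kinases lay closer together. HXK2 had 1073 and 1593 scaled counts with auxin, against 25480 and 27766 with DMSO (log2 change -4.32, edgeR adjusted p = 2.58e-28). HXK1 had 241 and 326 with auxin, against 7407 and 8242 with DMSO (log2 change -4.79, edgeR adjusted p = 3.17e-32). GLK1 had 266 and 423 with auxin, against 11005 and 11592 with DMSO (log2 change -5.03, edgeR adjusted p = 2.48e-34). All 3 were also lower under TMM and under median-of-ratios scaling, beside 27.5% and 26.8% of all genes. HXK1 made up 15.2% (95% Clopper-Pearson interval 13.8 to 16.8) and 13.9% (12.8 to 15.1) of the kinase counts in nsRNA with auxin, against 16.9% (16.5 to 17.3) and 17.3% (16.9 to 17.7) with DMSO. In total RNA its share was 1.11% (0.949 to 1.29) and 1.25% (1.09 to 1.43) with auxin, against 5.43% (5.16 to 5.70) and 5.54% (5.31 to 5.78) with DMSO. These intervals cover counting error only, since reads without molecular identifiers are not independent molecules. The share of HXK1 among the kinases was thus larger in new RNA than in standing RNA in all 4 pairs of libraries.

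The upper glycolytic enzymes carry glucose 6-phosphate to triose phosphates. In total RNA 2 of the 5 were lower on the deposited scaling, beside 90.3% of all genes. With TMM and with median-of-ratios scaling all 5 were higher, beside 34.9% and 37.1% of all genes. FBA1, the aldolase, had the highest level per kb of any coding gene in DMSO total RNA, 138488 ± 16022 scaled counts per kb (SD, n = 2), rank 1 of 6230. It had 113565 and 132947 scaled counts in total RNA with auxin, against 137332 and 161803 with DMSO, a log2 change of -0.28 ± 0.20 that did not pass (edgeR adjusted p = 0.163). In nsRNA FBA1 had 1468 and 2040 with auxin, against 41524 and 44619 with DMSO, a log2 change of -4.62 ± 0.39 (edgeR adjusted p = 2.22e-31). So 4.07% of the new RNA and 82.4% of the total RNA of FBA1 were left on the fitted scale. PGI1, the phosphoglucose isomerase, was at -4.20 in nsRNA and -0.29 in total RNA (not called), and TPI1, the triose phosphate isomerase, at -4.58 and -0.64. The subunits of phosphofructokinase, YGR240C (alpha) and YMR205C (beta), were at -4.51 and -4.45 in nsRNA. In total RNA the alpha subunit was at -0.38 (not called) and the beta subunit at -0.61.

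Lower glycolysis runs from glyceraldehyde 3-phosphate to pyruvate. All 9 of its genes were lower in nsRNA on the deposited scaling, beside 97.6% of all genes. With TMM 6 were lower and none higher, beside 27.5% and 29.6% of all genes, and the counts were the same by unadjusted p under 0.05. TDH3 was at 0.08 with TMM. In total RNA 7 of 9 were lower on the deposited scaling, beside 90.3% of all genes. With TMM none was lower there and 7 were higher, beside 38.1% and 34.9% of all genes. Glyceraldehyde 3-phosphate dehydrogenase (GAPDH) has 3 isoenzymes, each from an open reading frame of 999 bases. TDH3, the major form (sacCer3 chromosome VII, 882812 to 883810, reverse strand), had 3746 and 4902 scaled counts in nsRNA with auxin, against 64172 and 68876 with DMSO. Its log2 change was -3.94 ± 0.38 (edgeR adjusted p = 1.97e-25). TDH2 (chromosome X, 453683 to 454681, reverse strand) had 250 and 375 with auxin, against 11265 and 13627 with DMSO, a log2 change of -5.32 ± 0.41 (edgeR adjusted p = 1.05e-36). TDH1 (chromosome X, 338271 to 339269, forward strand), the form tied in the literature to slow growth and stress, had 170 and 245 with auxin, against 9869 and 11624 with DMSO. At -5.69 ± 0.42 (edgeR adjusted p = 9.89e-40) TDH1 had the lowest nsRNA change of the genes with counts in every library, and 1.05% of all tested genes had a lower one. Among GAPDH counts the minor genes thus had smaller shares with auxin, since TDH3 made up 89.9% and 88.8% of the GAPDH counts in nsRNA with auxin, against 75.2% and 73.2% with DMSO.

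In total RNA the order of the GAPDH genes was the same with smaller changes. TDH3 had 33015 and 36793 scaled counts with auxin, against 48389 and 50732 with DMSO (log2 change -0.51 ± 0.22, edgeR adjusted p = 0.0210). TDH2 had 1908 and 1888 with auxin, against 3713 and 3890 with DMSO (log2 change -1.0 ± 0.25, edgeR adjusted p = 9.1e-05). TDH1 had 833 and 880 with auxin, against 3340 and 3960 with DMSO (log2 change -2.09 ± 0.26, edgeR adjusted p = 4.45e-15). Under TMM all 3 were above 0, TDH1 at 0.14. TDH3 made up 92.3% and 93.0% of the GAPDH counts in total RNA with auxin, against 87.3% and 86.6% with DMSO. The GAPDH genes are close paralogs, and how reads that match more than 1 of them were counted was not stated, so the split between them is uncertain.

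Enolase, which makes phosphoenolpyruvate, has a pair of isoenzymes of 1314 bases each, so that their counts can be compared directly. ENO1 (sacCer3 chromosome VII, 1000927 to 1002240, forward strand) had 235 and 420 scaled counts in nsRNA with auxin, against 15678 and 17876 with DMSO. Its log2 change was -5.68 ± 0.42 (edgeR adjusted p = 9.89e-40), with 1.95% left. ENO2 (chromosome VIII, 451327 to 452640, forward strand), the form that glucose induces, had 2465 and 3442 with auxin, against 58003 and 59740 with DMSO, a log2 change of -4.32 ± 0.38 (edgeR adjusted p = 7.55e-29), with 5.02% left. ENO1 was therefore 8.71% (95% Clopper-Pearson interval 7.84 to 9.64) and 10.9% (10.1 to 11.7) of enolase counts in nsRNA with auxin, against 21.3% (20.9 to 21.6) and 23.0% (22.7 to 23.4) with DMSO. The intervals of the auxin libraries lie well below those of the DMSO libraries, but they cover counting error only and not the spread between libraries. The log2 ratio of ENO1 to ENO2 was -3.39 and -3.03 with auxin, against -1.89 and -1.74 with DMSO, a difference of -1.40 (exact two-sided permutation p = 0.333, the smallest that 2 against 2 libraries allow).

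In total RNA the shift between the enolases had the same direction and was smaller. ENO1 had 5777 and 6453 scaled counts with auxin, against 10553 and 13340 with DMSO (log2 change -0.97 ± 0.24, edgeR adjusted p = 6.77e-05). ENO2 had 43597 and 49354 with auxin, against 60548 and 69351 with DMSO (log2 change -0.48 ± 0.21, edgeR adjusted p = 0.0245). ENO1 made up 11.7% and 11.6% of enolase counts with auxin, against 14.8% and 16.1% with DMSO. The ENO1 share was higher in nsRNA than in total RNA with DMSO. With auxin it was lower in nsRNA than in total RNA. For auxin replicate 2 the counting intervals overlapped, at 10.1 to 11.7 in nsRNA and 11.3 to 11.8 in total RNA. As with GAPDH, the split rests on how reads shared by the close paralogs were counted.

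**Figure D2:**
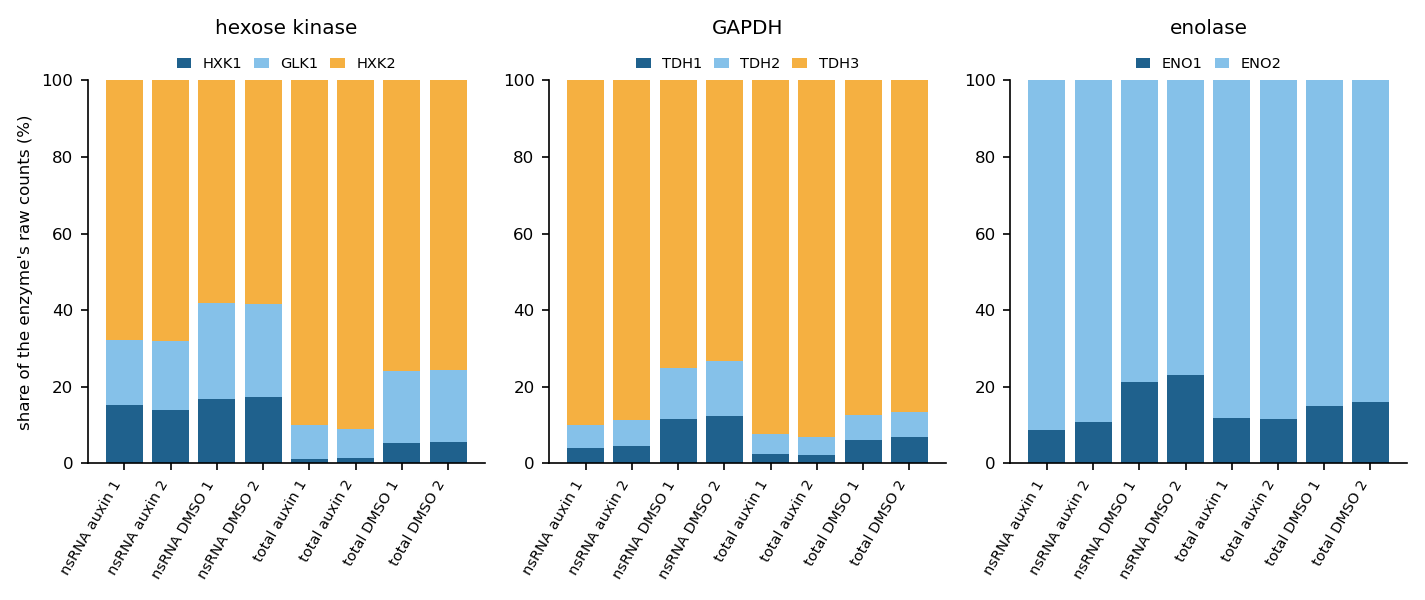
Share of each isoenzyme (%) in the summed raw counts of the enolases, the GAPDH genes and the hexose kinases, per library, with 2 auxin libraries left of 2 DMSO libraries in nsRNA and in total RNA. ENO1 falls to 8.71% and 10.9% in nsRNA with auxin, against 21.3% and 23.0% with DMSO, and HXK1 makes up 1.11% and 1.25% of the kinases in total RNA with auxin, against 5.43% and 5.54% with DMSO.

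The other lower glycolytic enzymes have a single or a dominant gene. YCR012W, the phosphoglycerate kinase, was at -4.56 in nsRNA and -0.53 in total RNA (edgeR adjusted p = 0.0106), and YKL152C, the phosphoglycerate mutase, at -4.68 and -0.37 (not called). CDC19, the pyruvate kinase used on glucose, had 834 and 753 scaled counts in nsRNA with auxin, against 14110 and 15354 with DMSO (log2 change -4.21, edgeR adjusted p = 4.53e-27). In total RNA CDC19 had 15757 and 16274 with auxin, against 17658 and 18296 with DMSO. At -0.17 ± 0.23 (edgeR adjusted p = 0.482) its change was the nearest to 0 of the set in total RNA, and 89.1% was left. PYK2, a second pyruvate kinase of low level on glucose, had 58.9 and 103 in nsRNA with auxin, against 1372 and 1671 with DMSO (log2 change -4.23, edgeR adjusted p = 1.58e-29). In total RNA PYK2 had 73.8 and 98.7 with auxin, against 412 and 523 with DMSO, a log2 change of -2.44 ± 0.27 (edgeR adjusted p = 9.45e-20). The pyruvate kinases thus had nearly the same nsRNA change, while the log2 ratio of PYK2 to CDC19 differed by -2.28 in total RNA (exact permutation p = 0.333) without overlap between the auxin and DMSO libraries.

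Fermentation starts with pyruvate decarboxylase and ends with alcohol dehydrogenase. On the deposited scaling 6 of 6 tested genes were lower in nsRNA and 4 of 7 in total RNA, beside 97.6% and 90.3% of all genes. With TMM 3 were lower and 1 higher in nsRNA, beside 27.5% and 29.6% of all genes. In total RNA with TMM 1 of 6 was lower and 5 were higher, beside 38.1% and 34.9% of all genes. YLR134W, a minor pyruvate decarboxylase (sacCer3 chromosome XII, 410723 to 412414, forward strand), had 101 and 120 scaled counts in nsRNA with auxin, against 442 and 456 with DMSO. Its log2 change of -2.02 ± 0.32 (edgeR adjusted p = 1.58e-10) was the smallest fall of the set in nsRNA, with 24.6% left, and 95.9% of all tested genes had a lower change. With TMM the YLR134W value was 2.01, above 0. YLR044C, the major decarboxylase (chromosome XII, 232390 to 234081, reverse strand), had 206 and 158 with auxin, against 3079 and 3368 with DMSO, a log2 change of -4.15 ± 0.38 (edgeR adjusted p = 1.67e-27).

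The log2 ratio of YLR134W to YLR044C was -1.03 and -0.39 in nsRNA with auxin, against -2.80 and -2.89 with DMSO, a difference of 2.13 and the largest upward shift among the 14 isoenzyme pairs with counts in every nsRNA library. In total RNA no such shift was seen. YLR134W had 106 and 137 with auxin, against 153 and 174 with DMSO (log2 change -0.43, edgeR adjusted p = 0.0898), and YLR044C had 1895 and 1570 with auxin, against 2219 and 2193 with DMSO (log2 change -0.35, edgeR adjusted p = 0.179). The ratio of the pair overlapped between auxin and DMSO there (exact permutation p = 1). YGR087C, another minor decarboxylase, had 9 raw counts in the auxin and 1 in the DMSO nsRNA libraries, and 3 and 1 in the total RNA libraries, too few for a test. Per kb, YLR044C ranked 1363 of 6365 coding genes in DMSO nsRNA and 904 of 6230 in DMSO total RNA, well below FBA1 or ADH1, although its enzyme is known as the main decarboxylase of fermentation. Decarboxylase genes are also close paralogs, with the same uncertainty.

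ADH1, the alcohol dehydrogenase that makes ethanol, had 1272 and 1915 scaled counts in nsRNA with auxin, against 38621 and 41384 with DMSO (log2 change -4.65, edgeR adjusted p = 1.31e-31). In total RNA it had 62425 and 72748 with auxin, against 84437 and 99882 with DMSO, a log2 change of -0.45 ± 0.21 (edgeR adjusted p = 0.0320). On the deposited scaling ADH1 was thus like FBA1, with little loss of a very large standing pool. ADH4, a minor form, had 65.2 and 82.2 in nsRNA with auxin, against 1776 and 1958 with DMSO (log2 change -4.66, edgeR adjusted p = 9.89e-33). In total RNA ADH4 had 185 and 201 with auxin, against 491 and 625 with DMSO (log2 change -1.53, edgeR adjusted p = 1.47e-09). ADH5 was at -4.72 in nsRNA and -2.84 in total RNA, and YMR083W, the mitochondrial form, at -3.86 and -0.71. ADH2, which glucose represses and which consumes ethanol, had 1 raw count in the auxin and 12 in the DMSO nsRNA libraries. In total RNA ADH2 had 7.81 and 5.75 scaled counts with auxin, against 10.2 and 12.6 with DMSO, a fitted log2 change of -0.74 that was not called. ADH1 and ADH2 are close paralogs, with the same uncertainty as above.

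Gluconeogenesis rebuilds glucose when sugar is absent, and its key genes were barely read in these glucose-grown cells. PCK1, the phosphoenolpyruvate carboxykinase, had 8 raw counts in the auxin and 55 in the DMSO nsRNA libraries, and 4 and 19 in the total RNA libraries. In scaled counts, PCK1 had 4.16 and 1.38 in nsRNA with auxin, against 40.4 and 38.9 with DMSO. No test is given for PCK1 in nsRNA, since it passed the filter only through the DMSO libraries. From the raw counts, 6.99% was left, with a 95% interval of 2.88 to 14.8 for counting error. FBP1, the fructose bisphosphatase, had 2 raw counts in the auxin and 11 in the DMSO nsRNA libraries, and 1 and 1 in total RNA. The pyruvate carboxylases, which refill the citric acid cycle, were better covered: PYC1 was at -4.45 in nsRNA and -0.77 in total RNA (edgeR adjusted p = 0.003), and PYC2 at -3.93 and -0.32 (not called). With TMM in total RNA both carboxylases were higher, beside 34.9% of all genes.

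The oxidative branch of the pentose phosphate pathway makes NADPH. All 5 of its genes were lower in nsRNA on the deposited scaling, near the 97.6% of all genes. With TMM 3 were lower and none higher (none by unadjusted p under 0.05 either), beside 27.5% and 29.6% of all genes. Without SOL4 and GND2, which passed the filter only through the DMSO libraries, 3 of 3 were lower on the deposited scaling and 2 of 3 with TMM. In total RNA 4 of 5 were lower on the deposited scaling, beside 90.3% of all genes. With TMM 2 were lower there and 3 higher, beside 38.1% and 34.9% of all genes. ZWF1, the glucose 6-phosphate dehydrogenase that commits sugar to the branch, had 267 and 258 scaled counts in nsRNA with auxin, against 6920 and 7380 with DMSO (log2 change -4.77, edgeR adjusted p = 3.96e-32). Its total RNA was 135 and 136 with auxin, against 1313 and 1402 with DMSO, a log2 change of -3.33 ± 0.28 (edgeR adjusted p = 8.66e-31), with 9.97% left. ZWF1 stands apart from FBA1 and ADH1 in that the total RNA change lies below the median gene. It was also high in new relative to standing RNA in DMSO cells, at rank 407 of 6365 per kb in nsRNA and rank 1225 of 6230 in total RNA.

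The next enzymes of the branch come as a major and a minor gene each. SOL3 and SOL4 encode 6-phosphogluconolactonases. SOL3 had 49.2 and 51.8 scaled counts in nsRNA with auxin, against 936 and 1119 with DMSO (log2 change -4.34, edgeR adjusted p = 1.09e-31), and 462 and 541 in total RNA with auxin, against 851 and 931 with DMSO (log2 change -0.83, edgeR adjusted p = 0.00123). SOL4 had 7.63 and 9.67 in nsRNA with auxin, against 272 and 333 with DMSO, a fitted log2 change of -5.11 with no test given, for the same reason as for PCK1. Standing RNA of SOL4 was 13 and 19.2 with auxin, against 145 and 186 with DMSO, a log2 change of -3.37 ± 0.31 (edgeR adjusted p = 1.99e-26). In total RNA the ratio of SOL4 to SOL3 differed by -2.55 without overlap (exact permutation p = 0.333).

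GND1 and GND2 encode 6-phosphogluconate dehydrogenases, GND1 being the major form. GND1 had 274 and 325 scaled counts in nsRNA with auxin, against 8645 and 9430 with DMSO (log2 change -4.92, edgeR adjusted p = 2.73e-33). Standing RNA of GND1 was 7504 and 9054 with auxin, against 10126 and 12347 with DMSO, a log2 change of -0.44 ± 0.24 that did not pass (edgeR adjusted p = 0.0681). GND2 had 2.08 and 0.691 in nsRNA with auxin, against 50.8 and 73.6 with DMSO, from 4 raw counts with auxin and 87 with DMSO. By these counts 2.21% was left (95% interval 0.589 to 5.87 for counting error), and no test is given, since GND2 passed the filter only through the DMSO libraries. In total RNA GND2 had 24.3 and 21.1 with auxin, against 54.5 and 53.6 with DMSO, a log2 change of -1.24 ± 0.33 (edgeR adjusted p = 0.000212). The ratio of GND2 to GND1 differed by -0.82 in total RNA without overlap (exact permutation p = 0.333).

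The non-oxidative branch interconverts sugar phosphates. On the deposited scaling its 6 genes were lower in nsRNA and 3 of 5 tested genes in total RNA, beside 97.6% and 90.3% of all genes. With TMM 3 of 5 were lower and 1 higher in nsRNA, beside 27.5% and 29.6% of all genes. In total RNA with TMM none was lower and 4 were higher, beside 38.1% and 34.9% of all genes. Without TKL2 and NQM1, which passed only through the DMSO libraries, 4 of 4 were lower in nsRNA (with TMM 2 lower and 1 higher), and without NQM1, 2 of 4 in total RNA (with TMM none lower and 4 higher). TKL1, the main transketolase, had 605 and 801 scaled counts in nsRNA with auxin, against 12893 and 13895 with DMSO (log2 change -4.25, edgeR adjusted p = 2.12e-27). Its total RNA was 5164 and 5814 with auxin, against 6852 and 7610 with DMSO (log2 change -0.40, edgeR adjusted p = 0.107). TKL2, the minor transketolase, had 0 counts in both auxin nsRNA libraries, against 12.0 and 22.2 scaled counts with DMSO. It was at least 8.23-fold lower, taking 3 counts per library as the limit of a count of 0. TAL1, the transaldolase, had 96.4 and 152 in nsRNA with auxin, against 3281 and 3637 with DMSO (log2 change -4.80, edgeR adjusted p = 2.64e-33). Its total RNA was 2127 and 2394 with auxin, against 3273 and 3808 with DMSO (log2 change -0.65, edgeR adjusted p = 0.0112). NQM1, a transaldolase paralog known from nonquiescent cells, also had 0 counts in both auxin nsRNA libraries, against 35.9 and 51.4 scaled counts with DMSO, and was at least 21.0-fold lower. In total RNA NQM1 had 5.21 and 4.79 with auxin, against 32.9 and 31.6 with DMSO, a fitted log2 change of -2.66 with no test given.

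The remaining enzymes of this branch differed in how far total RNA followed new RNA. YOR095C, the ribose 5-phosphate isomerase, had 57.6 and 70.5 scaled counts in nsRNA with auxin, against 803 and 869 with DMSO (log2 change -3.70 ± 0.35, edgeR adjusted p = 6.43e-26). In total RNA it had 270 and 326 with auxin, against 792 and 814 with DMSO (log2 change -1.43 ± 0.25, edgeR adjusted p = 2.41e-08). RPE1, the ribulose 5-phosphate epimerase, had 23.6 and 40.1 in nsRNA with auxin, against 459 and 549 with DMSO (log2 change -3.98, edgeR adjusted p = 6.85e-29). Standing RNA of RPE1 was 356 and 424 with auxin, against 427 and 476 with DMSO, a log2 change of -0.21 ± 0.25 (edgeR adjusted p = 0.401). On the deposited scaling the isomerase was thus among the genes with the smaller falls in nsRNA and yet fell in total RNA, while the epimerase did not pass there. With TMM, YOR095C was at 0.32 in nsRNA and 0.79 in total RNA, and RPE1 at 0.04 and 2.01. With a replicate block RPE1 too was called lower in total RNA, so the contrast depends on the scaling and the model.

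Across the isoenzymes, ratios of raw counts compare genes within a library, so that the library factor cancels and the choice of scaling has no bearing. Of 18 pairs of a minor over a major gene or subunit, 14 had counts in every nsRNA library. In 10 of the 14 the auxin and DMSO ratios did not overlap, 6 being lower and 4 higher with auxin. In each pair the first gene had the lower level per kb in DMSO cells, and over all pairs of tested genes taken in that order, 37.8% were lower and 39.5% higher without overlap, so these counts are near the background. The 6 lower were TDH1 to TDH3 (difference -1.76), ENO1 to ENO2 (-1.40), TDH2 to TDH3 (-1.38), SOL4 to SOL3 (-0.79), GLK1 to HXK2 (-0.73) and HXK1 to HXK2 (-0.46). SOL4 passed the edgeR filter in nsRNA only through the DMSO libraries, so its ratio lends no support to the count. The 4 higher were YLR134W to YLR044C (2.13), YMR083W to ADH1 (0.81), PYC2 to PYC1 (0.50) and the phosphofructokinase subunits YMR205C to YGR240C (0.06). New RNA of the first-named genes was thus lower relative to their partners in some pairs and higher in others.

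Total RNA ratios were counted in the same way. Of 16 pairs with counts in every library, 14 did not overlap, and 13 of these were lower with auxin, so that the standing RNA of the first-named gene was lower relative to its partner. Over all pairs of tested genes in the same order of level, 51.2% were lower and 32.4% higher without overlap. The largest differences were SOL4 to SOL3 (-2.55), HXK1 to HXK2 (-2.47), ADH5 to ADH1 (-2.40), PYK2 to CDC19 (-2.28), NQM1 to TAL1 (-2.04), TDH1 to TDH3 (-1.58) and GLK1 to HXK2 (-1.45). NQM1 passed the edgeR filter in total RNA only through the DMSO libraries, so its ratio lends no support to the count. Only PYC2 to PYC1 was higher without overlap (0.43), and YLR134W to YLR044C and ADH2 to ADH1 overlapped. With 2 libraries against 2, no ratio could pass the exact permutation test, whose smallest p is 0.333 (adjusted over the pairs, 0.467 in nsRNA and 0.381 in total RNA).

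**Figure D3:**
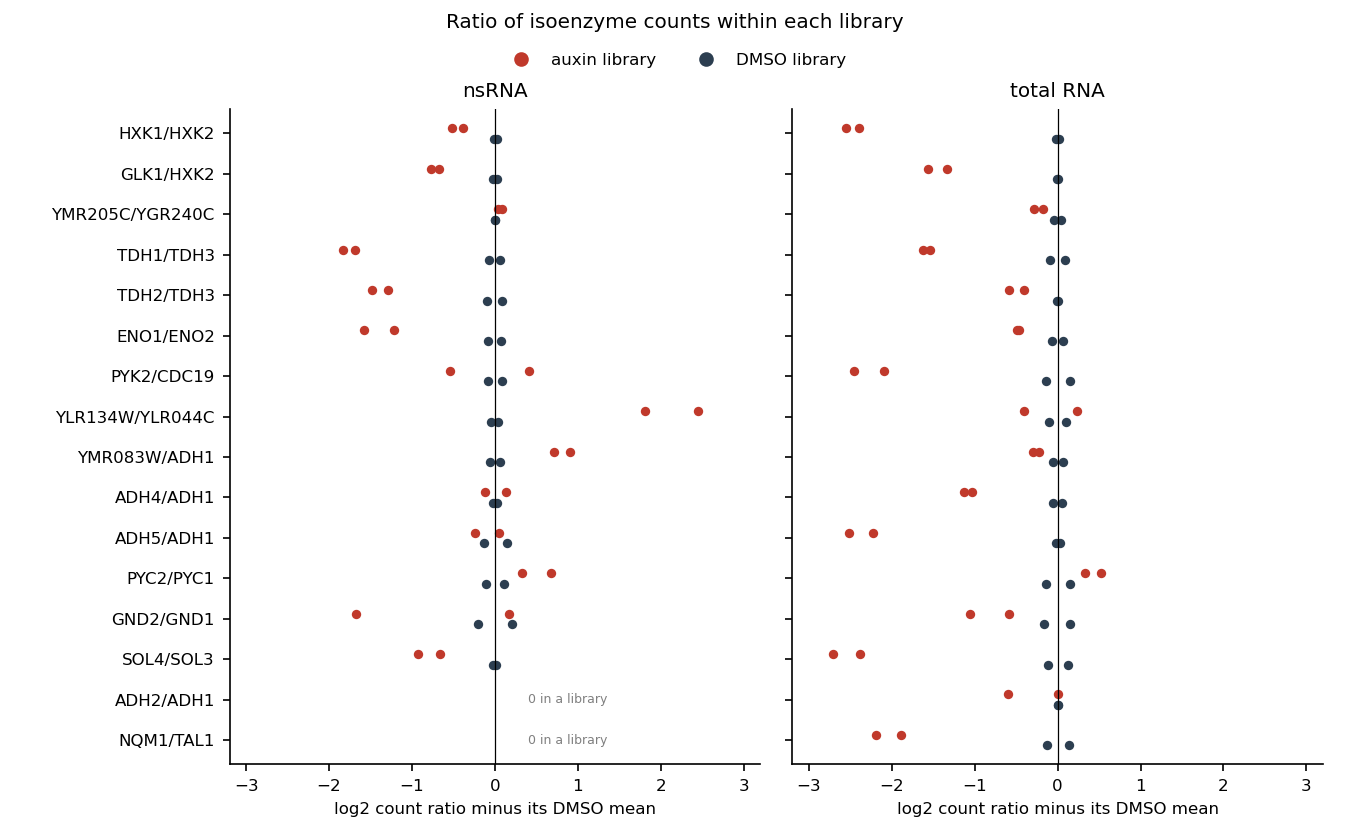
Log2 ratio of the raw counts of the genes of each pair, less the mean ratio of the DMSO libraries (x axis), with 2 auxin and 2 DMSO libraries per pair as points, in nsRNA and in total RNA; pairs with a count of 0 in a library are not drawn. Auxin lies below DMSO for 13 pairs without overlap in total RNA, and YLR134W over YLR044C in nsRNA lies above by 2.13.

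Whether total RNA followed new RNA was asked with an interaction term over all 8 libraries. On the deposited scaling 37 of 38 tested genes fell more in nsRNA than in total RNA, against 78.7% of all 5825 tested genes, and none fell less by edgeR (0.0172% of all genes did), by its unadjusted p under 0.05 or by DESeq2 (35 of 38 lower). The exception was PCK1 (difference -1.36, not called). The calls of ADH2 and TKL2, both of few counts, were lost in DESeq2 and without some libraries. PCK1, SOL4, GND2, TKL2 and NQM1 passed the nsRNA filter only through the DMSO libraries, and ADH2 was too low to test there. These genes lend no support to the count. With a mean count of at least 50, 33 of 33 fell more in nsRNA, SOL4 still among them, beside 4319 of all 5038 genes. The median difference was -3.78 for these genes and -1.65 for all genes, and 34 of the 38 lay below the all-gene median. With TMM, 29 of 36 were lower and 1, HXK1, was higher, beside 23.2% and 27.6% of all genes; with median-of-ratios scaling 29 of 36 were lower, beside 28.5% of all genes. The widest gap among genes with counts in every library was that of ENO1, at -4.71 ± 0.37 (edgeR adjusted p = 3.25e-33), followed by GND1 at -4.47 and FBA1 at -4.34. At the other end were HXK1 at -1.35, ZWF1 at -1.44, YLR134W at -1.59, SOL4 at -1.74, PYK2 at -1.79 and ADH5 at -1.88. PCK1, of few counts, lay at this end too. Since the total RNA change is subtracted to form the difference, a gene with a large fall in total RNA tends to this end by construction.

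**Figure D4:**
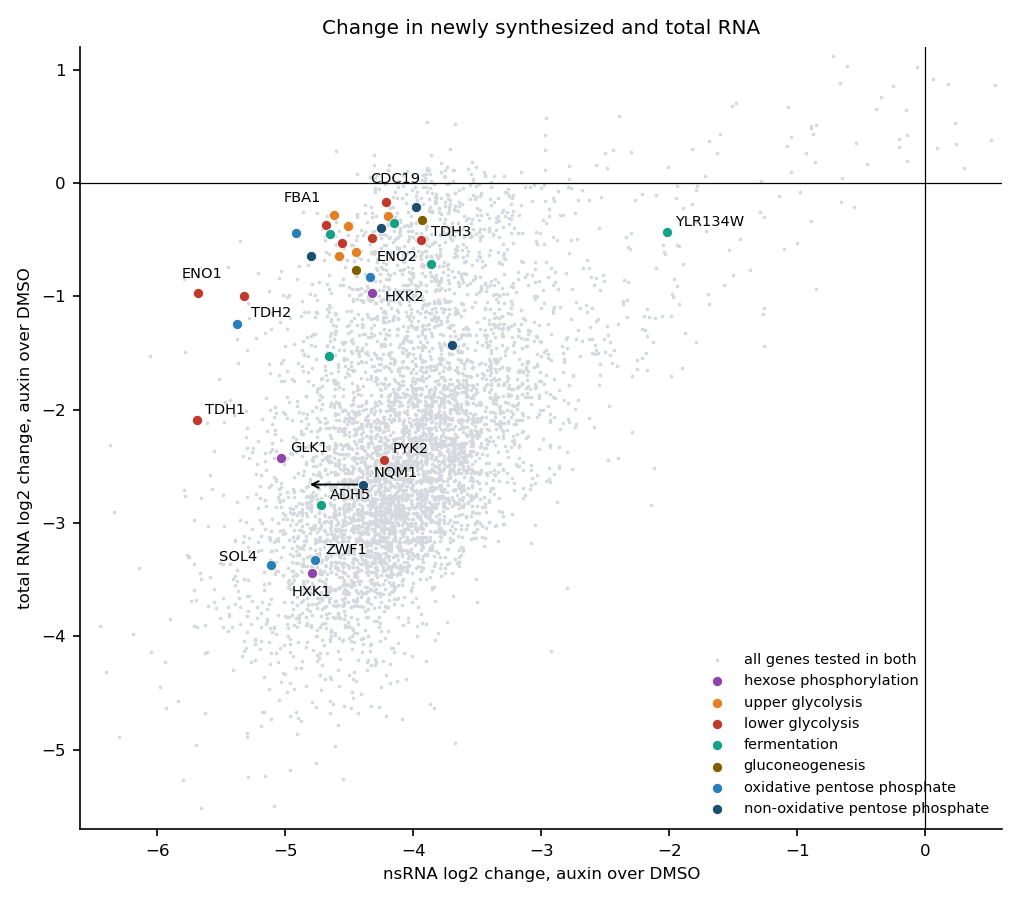
Log2 change, auxin over DMSO on the deposited scaling, in nsRNA (x axis) and total RNA (y axis) for genes tested in both, with the pathway genes coloured by step; 66 of 5433 genes lie outside the axes. NQM1 is drawn at its bound with an arrow, since its auxin nsRNA count was 0. Most pathway genes lie in the upper part of the grey cloud, near the median gene in nsRNA and within about 1 of 0 in total RNA, while HXK1, SOL4, ZWF1, ADH5, PYK2 and GLK1 lie in its middle or lower part; under TMM most of the pathway genes are above 0 in total RNA.

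In total RNA 13 of the 36 tested genes lay within 0.5 of 0 on the log2 scale, 12 were under -1 and 8 under -2. Of all tested genes, 90.6% had a lower change than TDH3 (-0.51), 83.6% than TDH2 (-1.0) and 58.9% than TDH1 (-2.09). The 8 were HXK1, SOL4, ZWF1, ADH5, PYK2, GLK1 and TDH1, and NQM1, which passed the filter only through the DMSO libraries and lends no support to these counts. Their nsRNA changes, -4.23 to -5.69 where no library was at 0, overlapped those of genes not called in total RNA, such as GND1 (-4.92), YKL152C (-4.68) and FBA1 (-4.62). Across the 35 genes tested in both kinds of RNA, the changes had a Pearson r of 0.43 and a Spearman rho of 0.54, and 0.36 and 0.51 over the 34 without NQM1. These genes share their libraries and scaling factors, so the values describe the set and carry no test.

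Levels in DMSO cells show how much of these pathways is made and kept. Per kb, TDH3 ranked 2 of 6365 coding genes in nsRNA, YCR012W 6, ENO2 10, YKL152C 13, FBA1 16 and ADH1 17. In total RNA the order was FBA1 at 1 of 6230, ADH1 at 8, YKL152C at 9, YCR012W at 10, TDH3 at 28 and ENO2 at 29. At the low end of total RNA lay YGR087C, FBP1, TKL2, PCK1 and ADH2, with ranks from 5441 (ADH2) to 6079 (YGR087C). The log2 change in total RNA was also set against the log2 mean scaled count of the DMSO total RNA libraries, not divided by length. Over 35 genes they had a Pearson r of 0.53 and a Spearman rho of 0.50, and for nsRNA 0.23 and 0.05. The DMSO libraries enter both the level and the change, so this too is a description.

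Genes next to these pathways were counted from a list of 32. In nsRNA all 32 were lower on the deposited scaling, beside 97.6% of all genes (with TMM 19 lower and 3 higher, beside 27.5% and 29.6%), with a median log2 change of -4.54. In total RNA 30 were lower, beside 90.3% of all genes (with TMM 15 of 31 lower and 9 higher, beside 38.1% and 34.9%), with a median of -2.47. On the deposited scaling these shares and those of the smaller groups below are near the background. Of the 32, 3 in nsRNA and 5 in total RNA passed the filter only through the DMSO libraries; without them 29 of 29 and 25 of 27 were lower. Against the -0.68 of the pathway enzymes and the -2.34 of all genes, the neighbours' total RNA median lies near that of all genes. Of glycerol synthesis genes 4 of 4 were lower in total RNA, among them GPD1, the glycerol 3-phosphate dehydrogenase (-3.66), and RHR2, the glycerol 3-phosphatase (-2.37). Of acetaldehyde and acetate genes 6 of 7 were lower, with ALD6, the cytosolic aldehyde dehydrogenase, at -2.37 and YLR153C, an acetyl-CoA synthetase, at -0.26 (not called, edgeR adjusted p = 0.289). Of the phosphoglucomutase and fructose 2,6-bisphosphate genes 4 of 5 were lower, with PGM2 at -2.67 and PGM1, its paralog, at -0.48 (not called, edgeR adjusted p = 0.0682). Minor paralogs and side enzymes were lower in 6 of 6, among them YDR516C (-3.29) and YKR043C (-0.82), and regulators in 10 of 10, among them RAP1 (-1.69) and GCR1 (-1.73), which drive transcription of glycolytic genes. With TMM the numbers lower and higher in total RNA were 2 and 1 of 4 for glycerol, 0 and 3 of 7 for acetate, 2 and 2 of 5 for phosphoglucomutase, 5 and 1 of 6 for minor paralogs and 6 and 2 of 9 for regulators.

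Calls in total RNA were close to the threshold for many of the genes. In the main fit 24 of 36 were lower, and with a replicate block 35 of 36, beside 5176 of all 5479 genes. NQM1 passed the filter only through the DMSO libraries, so its call, counted and listed below, lends no support. Of the 24 lower genes, 14 were called without each library in turn (HXK1, HXK2, GLK1, TDH1, TDH2, ENO1, PYK2, ADH4, ADH5, ZWF1, SOL4, GND2, YOR095C and NQM1), and 10 lost their call at least once (ADH1, ENO2, PYC1, SOL3, TAL1, TDH3, TPI1, YCR012W, YMR083W and YMR205C). Leaving out auxin replicate 1 gave 14 lower genes, as did leaving out DMSO replicate 2.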

How the data were processed

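Total RNA and 4-thiouracil-labelled RNA were sequenced from 4 groups of 2 libraries. The labels' protocols state that cells of S. pombe were added before extraction, and that libraries were stranded, depleted of ribosomal RNA and made from 800 ng (total RNA) or 300 ng (nsRNA). The submitters' processing notes name sacCer3 and bcl2fastq 2.17.1.14, while the aligner, counter and strand setting are not stated. The authors deposited raw counts per gene and a normalized signal, which is the count divided by 1 factor per library, per the file headers and the values. The factors were 1.44 and 1.45 (nsRNA, auxin), 0.669 and 0.720 (nsRNA, DMSO), 1.15 and 1.04 (total RNA, auxin) and 0.881 and 0.951 (total RNA, DMSO). Per the file headers, the authors also deposited log2 fold changes and p-values of their own. By the authors' deposited table, in nsRNA 38 of the 40 genes (95.0%) were lower, beside 84.3% of all genes, and in total RNA 26 (65.0%), beside 74.9%.

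Counts were fitted in edgeR 4.0.16 (quasi-likelihood test, R 4.3.3), the deposited factors serving as library sizes. Genes had to pass filterByExpr at a minimum count of 10, and a call needed an adjusted p under 0.05 (Benjamini-Hochberg, over all tested genes). The SE is the absolute log2 change divided by the square root of the F statistic. The 40 genes and the neighbouring lists were chosen with earlier results of these data known. All 40 are named; isoenzyme sets and the 3 lowest and 3 highest changes of each kind of RNA are given per library. Alternatives were TMM, median-of-ratios, DESeq2 1.42.0, no filter, a mean count of at least 50, a replicate block, each library left out and all 8 libraries in one fit; a block for the culture was added after seeing the data. Fits were also run on simulated counts in which equal numbers of genes were raised and lowered and most genes were left unchanged. That setting lacks the shift of most genes seen here, so it does not show how the fits behave under such a shift. Scaled counts of replicates correlated at 0.982 to 0.996 (Pearson, log2), and their chi-square was 2.66 to 12.0 times its degrees of freedom, above sampling noise. Of the 40 genes, 7 overlap another annotated feature, each with at most 18 counts. No sequence of S. cerevisiae was used here.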

Additional observations from a re-analysis of the deposited data

Results flagged for a closer look

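The change of 37 of 38 tested genes differed between nsRNA and total RNA by the edgeR interaction test, which is what drew attention to them. Of all 5825 tested genes, 78.7% were lower in the same test. The change was lower in nsRNA for each of the 37, with a median difference of -3.78, beside -1.65 for all tested genes. Among them SOL4, GND2, TKL2 and NQM1 passed the nsRNA filter only through the DMSO libraries, and ADH2 was too low to test there. These genes lend no support to the count. The largest differences were in ENO1, GND1 and FBA1 among genes with counts in every library, and the smallest were in HXK1, ZWF1 and YLR134W.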

How the results depend on the processing

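The direction of many values depended on the scaling; the cause was not tested. With TMM, 23 of the genes were lower in nsRNA and 5 in total RNA, with medians of -0.521 and 1.58, beside 27.5% and 38.1% of all genes. With median-of-ratios factors the counts were 23 and 4 and the medians -0.516 and 1.59, beside 26.8% and 36.0% of all genes. In nsRNA the log2 change was above 0 with TMM for TDH3 0.0832, YLR134W 2.01, YMR083W 0.17, PCK1 0.20, PYC2 0.0965, YOR095C 0.32 and RPE1 0.0428, and with median-of-ratios for TDH3 0.0875, YLR134W 2.01, YMR083W 0.17, PCK1 0.20, PYC2 0.10, YOR095C 0.33 and RPE1 0.0478. In total RNA it was above 0 with TMM for HXK2 1.25, PGI1 1.94, YGR240C 1.84, YMR205C 1.62, FBA1 1.95, TPI1 1.58, TDH1 0.14, TDH2 1.23, TDH3 1.72, YCR012W 1.7, YKL152C 1.86, ENO1 1.27, ENO2 1.74, CDC19 2.06, YLR044C 1.89, YLR134W 1.79, ADH1 1.78, YMR083W 1.52, ADH4 0.70, PYC1 1.47, PYC2 1.90, SOL3 1.39, GND1 1.78, GND2 0.98, YOR095C 0.79, RPE1 2.01, TKL1 1.83 and TAL1 1.58. With median-of-ratios it was above 0 for HXK2 1.29, PGI1 1.98, YGR240C 1.88, YMR205C 1.66, FBA1 1.99, TPI1 1.62, TDH1 0.18, TDH2 1.27, TDH3 1.76, YCR012W 1.74, YKL152C 1.90, ENO1 1.31, ENO2 1.78, CDC19 2.10, YLR044C 1.93, YLR134W 1.83, ADH1 1.82, ADH2 1.51, YMR083W 1.56, ADH4 0.74, PYC1 1.51, PYC2 1.94, SOL3 1.43, GND1 1.83, GND2 1.02, YOR095C 0.83, RPE1 2.05, TKL1 1.87 and TAL1 1.62. The difference between nsRNA and total RNA was above 0 with TMM for HXK1 0.48, PYK2 0.0392, YLR134W 0.24, PCK1 0.49, ZWF1 0.40 and SOL4 0.0777, and with median-of-ratios for HXK1 0.28, YLR134W 0.0378 and ZWF1 0.20.

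On the deposited scaling no direction of a tested gene changed under DESeq2, the filters, the block fits, the joint fit or the loss of any library. Without each library in turn, 14 to 20 of the genes were lower in total RNA, with a median between -0.875 and -0.53. Ratios that overlapped between auxin and DMSO changed sign with libraries left out: PYK2 to CDC19 (-0.542 to 0.41), ADH4 to ADH1 (-0.12 to 0.136), ADH5 to ADH1 (-0.239 to 0.0444) and GND2 to GND1 (-1.67 to 0.165) in nsRNA, and YLR134W to YLR044C (-0.403 to 0.239) and ADH2 to ADH1 (-0.646 to 0.0177) in total RNA. Where 1 library was left in a group, it was assumed to vary like the others. Gene by gene, same-numbered samples did not deviate together (correlation of deviations -0.05 in nsRNA and 0.06 in total RNA). A shift of a whole library shared by same-numbered samples cannot show in this check, so whether they were paired was not settled. The main fits do not use the replicate number as a pairing. With the replicate block 37 genes were lower in nsRNA and 35 in total RNA, with medians of -4.58 and -0.677, and 37 in the difference. Of all genes, 5663 of 5800 were lower with the block in nsRNA and 4965 of 5825 in the difference. In total RNA 24 were lower without the block. The 11 called lower with it but not in the main fit were PGI1, YGR240C, FBA1, YKL152C, CDC19, YLR044C, YLR134W, PYC2, GND1, RPE1 and TKL1. Of all 5479 tested genes 5176 were lower in total RNA with the block. Depth limits the genes of few counts, ADH2, FBP1, PCK1, TKL2, YGR087C, GND2 and NQM1, in the auxin nsRNA libraries above all. The ± given for a change rests on 2 libraries a group.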
